A study of Mus musculus with 48 samples.

Results

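The 871 chromatin regions described here were those at which the sorted state called Ttad had the lowest accessibility of 4 CD8 T cell states recovered from tumours of aged mice. They were chosen on the measured values from a table of 53868 regions, of which 42182 had a mean normalized value of at least 30 over all 48 libraries. A region was taken if its mean log2(value + 1) over the 6 aged Ttad libraries lay at least 0.25 below the mean of the 6 aged libraries of each other state, with the 3 guide groups pooled. The smallest of those 3 differences is called the margin, and because it chose the regions it is given as a description with no test. The members made up 1.62% of all regions and 2.06% of those past the floor of 30.

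The cells were CD45.1 CD8 T cells of the OT-1 line, whose receptor recognises an ovalbumin peptide, and all of them expressed Cas9. They had been transduced with a lentivirus that encoded 1 guide RNA and an ametrine reporter, given to young or aged mice the day before inoculation with B16-OVA, a melanoma line that makes ovalbumin, and sorted from the tumours on day 15. The guide groups were Zfp219 and Dusp5, both labelled as knockouts, and a control labelled OTC. The sorting gates were Slamf6+Tim-3- for Tprog (progenitor exhausted), Slamf6+Tim-3+ for Ttran (transitory, effector-like), Slamf6-Tim-3+ for Tterm (terminally exhausted) and Slamf6-Tim-3- for Ttad (age-associated dysfunctional). Aged hosts gave 24 libraries, 2 for each guide in each state. Young hosts gave 24 libraries, 2 for each guide in Tprog and 3 in each of Ttran and Tterm, and the Ttad libraries analysed here were all from aged hosts. Each library came from cells of several mice pooled, with 5000 to 50000 cells for a guide and state, and the ages of the mice in months, the guide sequences and the extent of editing are not used here.

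In chronic antigen exposure CD8 T cells pass from a self-renewing progenitor state to effector-like and then terminally exhausted states, and each step is accompanied by the opening and closing of enhancers. ATAC-seq measures this with the Tn5 transposase, which inserts sequencing adapters where DNA is not packed by nucleosomes, so that more reads mean a more open region. Open regions away from promoters are often bound by factors such as AP-1, BATF, NFAT, RUNX, T-box and TCF family members, and a region assigned to a gene by position need not control that gene.

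Few of these regions lay at promoters. Of the 871, 47 overlapped a promoter window (the 250 bases before and 50 after a RefSeq start site), which is 5.40%, against 21.4% of all regions past the floor and 5.01% of the 16040 regions with a mean of 30 to 100, the range in which most members lay. The windows at 3 genes are printed because their regions overlapped the window and because their values differed between guides or held in a guide that did not choose them. They are Gzmk, which encodes the cytotoxic protease granzyme K (window chr13:113180916-113181215, minus strand), Il21, which encodes the cytokine interleukin 21 (chr3:37232587-37232886, minus strand), and Adam19, which encodes a membrane metalloproteinase (chr11:46127654-46127953, plus strand). The sequences are from RefSeq, build GRCm38.p6, 5′ to 3′ on the strand of the gene, and capitals mark matches to the searched motifs on either strand. These 3 were picked after their values were seen. The Adam19 region (chr11:46126061-46127720, in the gene body) ended before the start site and overlapped only the upstream end of its window. That start site therefore lies inside the gene and is not its first.
Gzmk: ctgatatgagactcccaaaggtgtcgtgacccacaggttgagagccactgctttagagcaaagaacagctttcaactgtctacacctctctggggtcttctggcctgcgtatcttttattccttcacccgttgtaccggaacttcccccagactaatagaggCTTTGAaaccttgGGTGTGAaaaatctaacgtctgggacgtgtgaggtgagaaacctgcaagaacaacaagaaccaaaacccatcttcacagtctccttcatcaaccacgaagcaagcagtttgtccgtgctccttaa
Il21: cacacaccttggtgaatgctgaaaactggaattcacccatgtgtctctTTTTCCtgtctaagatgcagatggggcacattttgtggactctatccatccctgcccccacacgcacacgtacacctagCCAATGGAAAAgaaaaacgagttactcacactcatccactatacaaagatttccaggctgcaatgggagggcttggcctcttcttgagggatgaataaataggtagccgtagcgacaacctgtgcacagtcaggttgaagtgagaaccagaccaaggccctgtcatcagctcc
Adam19: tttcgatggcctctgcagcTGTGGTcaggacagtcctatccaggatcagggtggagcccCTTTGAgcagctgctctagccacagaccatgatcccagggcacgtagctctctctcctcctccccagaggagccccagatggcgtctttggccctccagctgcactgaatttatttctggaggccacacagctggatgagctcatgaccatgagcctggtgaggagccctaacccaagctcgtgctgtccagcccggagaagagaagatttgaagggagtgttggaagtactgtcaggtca
The capitals mark TCF7/LEF1 (CTTTGA) and T-box (TCACACC) letters at Gzmk, a CCAAT box and, beside it and further upstream, NFAT letters (TTTTCC) at Il21, and RUNX (TGTGGT) and TCF7/LEF1 letters at Adam19.

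The 47 regions overlapped 66 RefSeq windows, with a median GC content of 57.7%, against 59.3% for windows at regions with a mean of 30 to 100 and 61.7% for windows at all regions past the floor. ETS letters (CCGGAAG) were in 1 of the 66 windows (1.52%), against 5.32% and 18.3%. The AP-1 letters (TGANTCA) were in 9.09% of member windows, against 7.20% and 4.99%, TCF7/LEF1 letters in 15.2%, against 14.1% and 11.5%, RUNX letters in 18.2%, against 15.2% and 12.9%, and NFAT letters in 22.7%, against 21.8% and 19.8%. The T-box letters were in 3.03%, against 4.01% and 3.45%, and the GC box (GGGCGG) in 62.1%, against 54.5% and 65.3%. E-box letters (CACGTG) were in 3 windows (4.55%), against 9.25% and 10.3%. The ETS and E-box shares, from 1 and 3 windows, lay below those of equally weak regions, and the differences were not tested. A match of letters is a description and not a binding site. The sequences of the distal regions are not analysed here.

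The libraries held 5638413 to 29942755 reads in regions (median 14691505), and the 6 aged Ttad libraries held 7786663 to 15723953. A single read was worth 0.848 to 1.68 units of normalized value in aged Ttad libraries, so a value of 5 rests on a handful of reads. T cell identity genes had open regions in every state (12 of 12 genes, summed value of the strongest regions 9632 to 15410 in aged Ttad, 9598 to 14100 in the other aged states). None of the members was assigned to a marker gene of melanoma, myeloid, B, NK, CD4 T, stromal or erythroid cells. The summed strongest regions of the melanoma list were 845 to 1225 in aged Ttad, 886 to 1137 in Tprog, 695 to 1013 in Tterm and 701 to 1029 in Ttran, and those of the myeloid list were 1600 to 1785 in aged Ttad and 1415 to 2087 in the other aged states. No region of the table lay in the body of Tyr, Tyrp1, Dct, Sox10, Csf1r, Lyz2, Adgre1, Cd79a, Ncr1, Foxp3 or Hbb-bs. Other genes of the same lists did have regions. The strongest of each list had a mean over all libraries of 527 (Pmel, melanoma), 678 (Fcgr3, myeloid), 338 (Blk, B) and 549 (Eomes, NK). For the CD4 T, stromal and erythroid lists it was 784 (Zbtb7b), 1021 (Pecam1) and 305 (Itga2b). The part of other cells in the Ttad values was not tested.

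The members were weaker and narrower than most regions. Their median mean value was 53.8 (range 30.0 to 593), against 157 for all regions past the floor, 701 of them (80.5%) had a mean between 30 and 100, against 38.0% of regions past the floor, and their median width was 753 bases, against 1054. The median margin was 0.35 and the largest 1.25, and 143 members had a margin of at least 0.5. By the same rule 5055 regions were lowest in Tprog, 2750 in Tterm and 1112 in Ttran, while 446 were highest in Ttad, so the Ttad set was the smallest of the lowest-state sets. The state next above Ttad was Tprog at 368 members, Tterm at 334 and Ttran at 169, and the most open state was Ttran at 368. The other 3 states differed among themselves by a median of 0.30 on the log2 scale at these regions.

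Averaged over the 871 regions, log2(value + 1) was 5.31 ± 0.13 in aged Ttad (SD, n = 6 libraries), 5.85 ± 0.01 in Tprog, 5.94 ± 0.09 in Ttran and 5.84 ± 0.11 in Tterm (n = 6 each). The Ttad libraries ran from 5.09 to 5.43 and those of the other aged states from 5.73 to 6.06, and this gap is fixed by the choice of regions. Over all 16040 regions with a mean of 30 to 100 the aged Ttad libraries lay at 5.59 to 5.76 and the other aged libraries at 5.61 to 5.77.

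**Figure D1:**
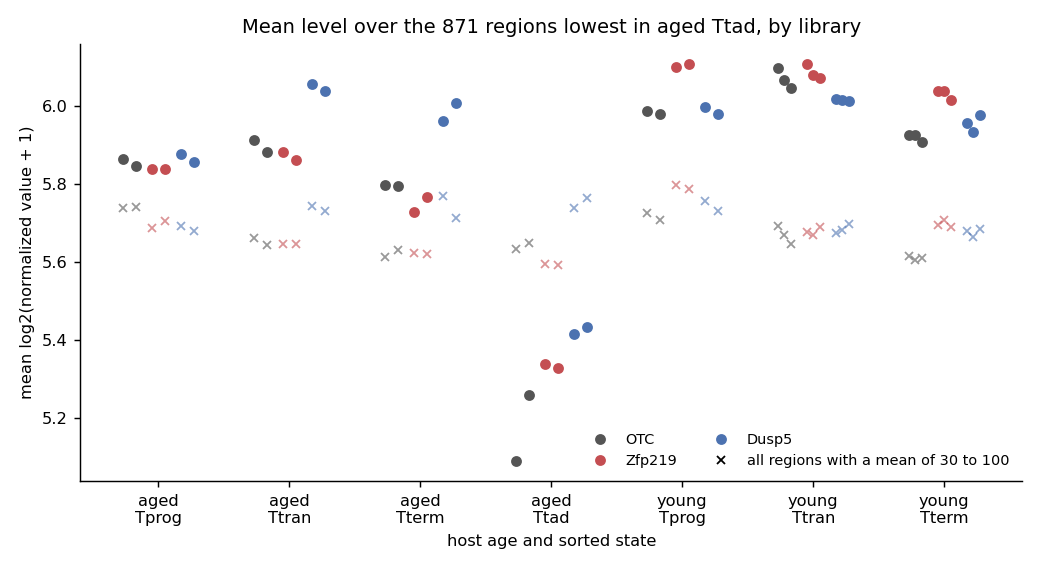
Mean log2(normalized value + 1) over the 871 regions in each of the 48 libraries (filled points, coloured by guide) and over all regions with a mean of 30 to 100 (crosses), by host age and sorted state. The aged Ttad libraries lie between 5.09 and 5.43 because the regions were chosen on them, the lowest being the control OTC libraries, and the crosses of the same libraries lie between 5.59 and 5.76.

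Set against the spread between replicates most margins were small. The standard error of a difference between means of 6 libraries was taken from the spread within groups of the same guide and state. It leaves out the spread between guides. Its median was 0.22 at the members, against 0.12 over regions past the floor. The margin exceeded 2 standard errors at 309 members (35.5%), which is a description, since the margin chose them. Without the first replicate of every aged group the rule found 1344 regions, 514 of them members, and without the second it found 1511, of which 572 were members. The 3 members nearest the threshold were regions at Shroom1 (chr11:53469726-53470705, margin 0.25016), Krba1 (chr6:48410223-48410958, 0.25015) and Dnajc10 (chr2:80344856-80345351, 0.25011). The 3 regions just outside were at Bicral (chr17:46834900-46835818, margin 0.24965), Tnfrsf11a (chr1:105890807-105891499, 0.24941) and Otulinl (chr15:27659207-27660077, 0.24929).

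The members with the largest margins were weak. The largest was a region in the body of Vwce, which encodes a secreted von Willebrand factor C and EGF domain protein (chr19:10647964-10648639, margin 1.25). Its normalized value in aged Ttad was 5.03 and 4.93 with OTC, 16.96 and 12.8 with Zfp219 and 14.7 and 11.7 with Dusp5. The other 18 aged libraries ran from 11.7 to 57.2 with a median of 29.8. The ranges overlapped, since Zfp219 Tprog replicate 1 (15.6) and Dusp5 Tterm replicate 2 (11.7) fell among the Ttad values, and the OTC pair lay below every other library. At Immp2l, which encodes a peptidase of the inner mitochondrial membrane (chr12:41044863-41045146, gene body, margin 1.004), aged Ttad ran from 5.86 to 15.04 with a median of 11.3 and the other aged libraries from 14.7 to 36.7 with a median of 25.2. Near Tmem255b (chr8:13428130-13429224, 5889 bases outside the gene, margin 1.002) they ran from 13.4 to 24.7 and from 17.9 to 74.6. In either region only 1 of the other aged libraries lay below the highest Ttad library. Col23a1, a transmembrane collagen gene (chr11:51464705-51465592, gene body, margin 1.15), was uneven between guides, with 0 and 12.3 in OTC Ttad, 3.39 and 3.41 in Zfp219 Ttad and 20.5 and 20.1 in Dusp5 Ttad, against 8.96 to 47.3 elsewhere in aged hosts. Epb41l2, which encodes a linker of membrane and cytoskeleton (chr10:25457123-25457531, gene body, margin 1.05), had Ttad replicates as far apart as 23.4 and 5.01 with Dusp5. The next in order were regions at Hecw2 (margin 0.96), Tmem156 (0.94), Atxn7 (0.92), Tiam2 (0.92), Anxa4 (0.89), H2-Q1 (0.88) and Mical3 (0.85).

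In only 3 members, and in no other region past the floor, did all 6 aged Ttad libraries lie below all 18 of the other aged libraries. The first was in the body of Arid1a, a subunit gene of the BAF chromatin remodelling complex (chr4:133688183-133688935, margin 0.64), with 16.8 to 28.4 in aged Ttad (median 25.5) against 30.9 to 50.8. The second was in Sp100, which encodes a component of PML nuclear bodies (chr1:85705736-85706428, margin 0.64), with 95.6 to 138 (median 124) against 151 to 310.0. The third was in Rngtt, the gene of the mRNA capping enzyme (chr4:33466702-33468035, margin 0.52), with 114 to 163 (median 148) against 169 to 270.3. Sp100 and Rngtt were stronger than most members, with means of 187 and 256 over all libraries. The members with the highest means were regions at Rbm47 (593), Gm38821 (539), Por (519), Hsbp1l1 (499), Septin7 (419.8), Bcas3 (339.6), Raet1e (327), Csnk1a1 (323), Batf3 (309) and Abhd2 (302). Their margins were 0.25 to 0.41, so strength and margin did not go together at the ends of the list.

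**Figure D2:**
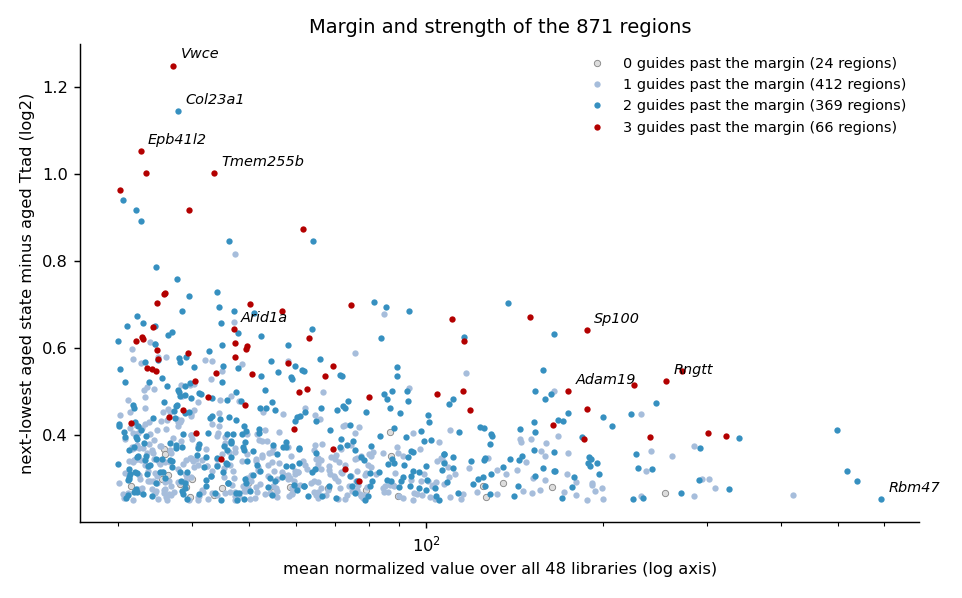
Margin (log2, vertical axis) against the mean normalized value over all 48 libraries (horizontal log axis) for each of the 871 regions, coloured by the number of guides that pass the 0.25 margin when taken alone. The largest margins, such as 1.25 at Vwce, sit at means under 50, and the strongest region, in Rbm47, has a margin of 0.25.

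The counts by guide given next use the libraries that chose the members. They follow in part from that choice and do not test agreement between guides. Taken alone, Ttad was the lowest state in all 3 guides at 366 members, in 2 guides at 420 and in 1 at 85. The 0.25 margin was met by 3 guides at 66 members, by 2 at 369, by 1 at 412 and by none at 24. OTC met it at 532 members, Dusp5 at 422 and Zfp219 at 394, so OTC weighed most in the choice. The median difference of Ttad from the mean of the other states was -0.62 in OTC, -0.49 in Dusp5 and -0.44 in Zfp219.

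Lists chosen without a guide allowed a test in libraries that had no part in the margin. For each guide the rule was run on the other 2 guides, with the floor still taken over all 48 libraries, and the regions of that list were read in the guide left out. The list made without OTC held 1038 regions (506 of them members). In OTC Ttad was the lowest state at 40.4% of them and met the margin at 216 (20.8%), against 18.5% and 5.36% of all regions past the floor. The list made without Zfp219 held 1232 regions, with 40.5% and 215 (17.5%) in Zfp219, against 15.98% and 3.94%. The list made without Dusp5 held 1301 regions, with 35.1% and 208 (15.99%) in Dusp5, against 18.98% and 4.21%. In each case the list stood above all regions past the floor, and most of its regions did not meet the margin again. The lists were weaker than that background. Of their regions, 844 of 1038, 953 of 1232 and 1006 of 1301 had a mean of 30 to 100, against 38.0% of all past the floor. Shares of the margin and the lowest state over equally weak regions are not given here.

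With limma and Benjamini-Hochberg adjustment over all 53868 regions, Ttad was compared with the mean of the other 3 states within each guide. Of the list made without OTC, 76 regions were lower in OTC Ttad at an adjusted p under 0.05 and 1 was higher. The 76 are 7.32%, against a background of 1.96% of all regions called lower. Of the list made without Zfp219, 19 were lower and 0 higher in Zfp219 Ttad, which is 1.54% against a background of 0.2%. Of the list made without Dusp5, 45 were lower and 1 higher in Dusp5 Ttad, which is 3.46% against a background of 1.18%. The lower calls therefore made up a larger share of each list than of the table. Among regions with a mean of 30 to 100 alone, the shares called lower were 4.50% of the list against 1.85% of all such regions in OTC, 0.420% against 0.162% in Zfp219 and 1.99% against 0.898% in Dusp5. The median difference over the list was -0.21 in OTC, -0.18 in Zfp219 and -0.14 in Dusp5, against 0.01, 0.03 and 0.01 over regions past the floor. In all, 104 regions were called lower in at least 1 guide left out, 98 of them members. The guides that chose each list also enter the pooled rule, so this overlap with the members follows largely from the choice. Leaving out replicate 1 or 2 of every group, which leaves 1 aged library a group, took the counts of calls in either direction to 30 and 40 for OTC, 5 and 4 for Zfp219 and 26 and 15 for Dusp5.

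**Figure D3:**
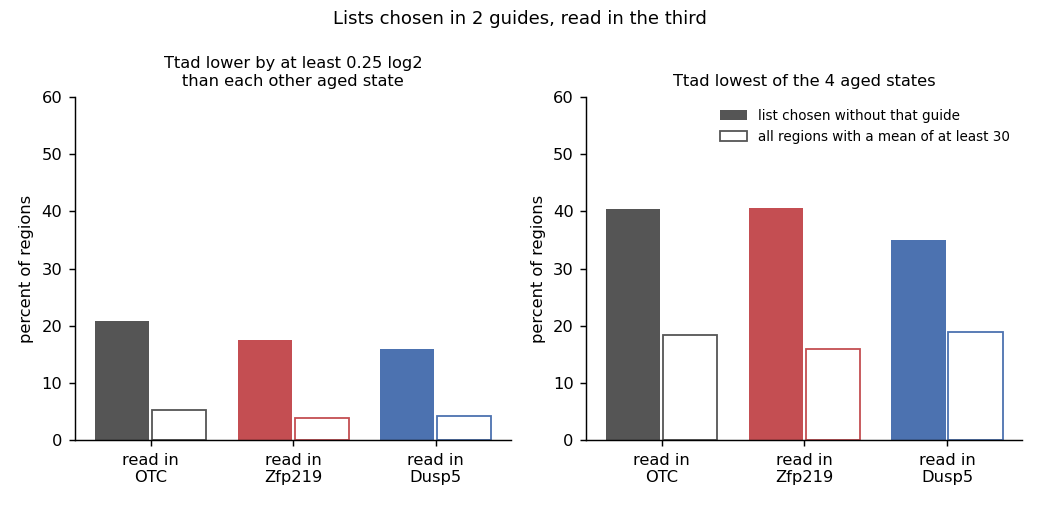
Percent of regions in lists chosen from 2 guides (filled bars) that met the 0.25 margin (left) or had Ttad as the lowest state (right) in the guide left out, beside all regions with a mean of at least 30 (open bars). The filled bars are 15.99% to 20.8% on the left and 35.1% to 40.5% on the right, above the open bars in each guide. The lists hold a larger share of weak regions than the open bars.

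At 7 regions, singled out after the calls were seen, Ttad was called lower in each guide when that guide was left out of the choice. They were among 216 regions that were in all 3 lists, so every guide had a part in choosing them. The same count over all regions is not given here. The strongest of the 7 was in the body of Hsbp1l1 (chr18:80227910-80229359). Its Ttad values were 236 and 201 with OTC against 320.3 to 570.1 in the other aged states, 292 and 289 with Zfp219 against 321 to 535, and 256 and 334 with Dusp5 against 364 to 599.5. In no guide did the Ttad pair overlap the other 6 libraries of that guide, and Tprog was the next lowest. The limma differences were -1.09 ± 0.10 (SE, adjusted p = 1.67e-13) in OTC, -0.61 ± 0.10 (adjusted p = 0.000354) in Zfp219 and -0.76 ± 0.10 (adjusted p = 2.63e-07) in Dusp5.

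A region in Rngtt was also clear of overlap in every guide. Ttad had 151 and 145 with OTC (others 188 to 247), 114 and 121 with Zfp219 (169 to 199) and 163 and 150.4 with Dusp5 (205 to 270.3). The differences were -0.50 ± 0.13, -0.64 ± 0.13 and -0.59 ± 0.13 (limma, adjusted p = 0.0231, 0.00917 and 0.00731). The region in Synrg, whose product works with the clathrin adaptor of the Golgi (chr11:83994545-83996099), had 93.9 and 108 in OTC Ttad against 177 to 325, 158 and 133 in Zfp219 Ttad against 152 to 296, and 154 and 132 in Dusp5 Ttad against 180.5 to 334. With Zfp219 the Ttad pair overlapped the Tterm pair (152 and 166). The differences were -1.10 ± 0.14, -0.64 ± 0.14 and -0.93 ± 0.14 (limma, adjusted p = 6.95e-08, 0.0144 and 8.96e-06).

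The largest differences among the 7 were at a region 14658 bases outside Lmntd1, which encodes a lamin tail domain protein (chr6:145373546-145374656). Ttad had 47.0 and 45.6 with OTC, 28.0 and 37.5 with Zfp219 and 46.9 and 40.1 with Dusp5. The other aged libraries ran from 43.6 to 147 with OTC, 39.9 to 176 with Zfp219 and 81.6 to 222 with Dusp5. Tterm was the state nearest to Ttad, and 1 OTC Tterm library (43.6) lay below the Ttad pair. The differences were -1.10 ± 0.23, -1.39 ± 0.23 and -1.62 ± 0.23 (limma, adjusted p = 0.00125, 0.000232 and 9.38e-07). The other 3 regions lay 2856 bases outside Atp4b, the beta subunit gene of the gastric proton pump (chr8:13382373-13383353, -0.84 to -1.23), in the body of Snx30, a sorting nexin gene (chr4:59894979-59895684, -0.80 to -0.996), and 23136 bases outside Csnk1a1, the casein kinase 1 alpha gene (chr18:61613456-61615042, -0.47 to -0.59). Their adjusted p in limma ran from 0.000454 to 0.0336, and in Dusp5 the Ttad pair overlapped the other libraries at all 3. The Ttad pair of the guide left out lay clear of the other 6 libraries in 55 of the 76 OTC calls, 16 of the 19 Zfp219 calls and 29 of the 45 Dusp5 calls. The same share over all regions called lower (1057, 108 and 636) is not given here, so these counts show nothing particular to the lists.

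**Figure D4:**
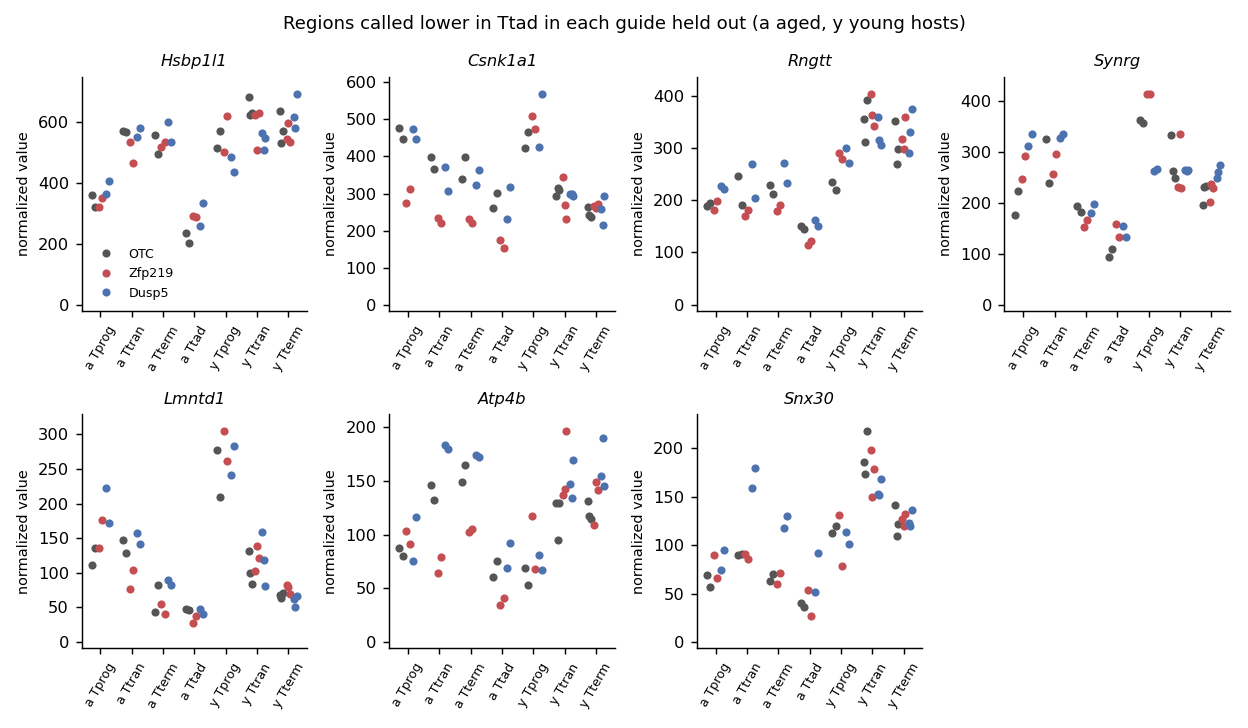
Normalized value in each library (points, coloured by guide) at the 7 regions called lower in Ttad in every guide left out, by host age (a aged, y young) and sorted state. Aged Ttad is on average the lowest column of the aged hosts in each panel, as at Rngtt where it holds 114 to 163 against 169 to 270.3.

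Genes of T cell biology held a small part of the set. The lists below were written with earlier results of these data known. Members numbered 6 of 156 regions past the floor (3.85%) assigned to AP-1, BATF, IRF, NFAT and related leucine zipper factors, 3 of 142 (2.11%) to exhaustion regulators and inhibitory receptors, 3 of 90 (3.33%) to chromatin regulators, 2 of 183 (1.09%) to stem-like and memory regulators, 2 of 134 (1.49%) to effector and cytotoxic genes, 2 of 84 (2.38%) to cell cycle genes, 1 of 180 (0.556%) to cytokine receptors and STAT factors, 1 of 112 (0.893%) to residency and homing genes, 1 of 95 to glycolysis and MYC genes and 1 of 44 to mitochondrial respiration. The background share was 2.06% of regions past the floor. No member was assigned to T cell receptor signalling genes (0 of 246 regions), T cell identity genes (0 of 90), the sorting markers Slamf6 and Havcr2 (0 of 10) or the genes perturbed in the study (0 of 35).

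Maf, a leucine zipper factor that drives Il10 in several T cell types, had 3 members among its 5 regions past the floor. The 3 lay 19264, 35585 and 64017 bases outside the gene, with no other region past the floor between them on chromosome 8 (115726158 to 115771591). The middle one (chr8:115742479-115743222) had 15.1 and 45.6 in OTC Ttad, 41.5 and 32.4 in Zfp219 Ttad and 30.8 and 30.1 in Dusp5 Ttad. Aged Ttran ran from 45.9 to 144, Tterm from 66.8 to 89.8 and Tprog from 34.8 to 53.4. Tprog was thus the neighbour of Ttad and overlapped it, and the OTC pair was spread widely. It was called lower in the guide left out for OTC (-1.35 ± 0.29, limma adjusted p = 0.0024) and Dusp5 (-1.35 ± 0.29, adjusted p = 0.00423). In young hosts, which chose nothing but the floor, the same region was lower in Tprog than in Ttran (-0.92 ± 0.19, limma adjusted p = 3.58e-05), with 38.7 to 69.3 against 60.7 to 145.

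Batf3, a partner of JUN proteins in the BATF family, had 2 members, in its body (chr1:191099893-191100864) and 9649 bases outside (chr1:191118592-191119262). The region in the gene was among the strongest members. Its aged Ttad values were 342 and 303 with OTC, 153 and 170.5 with Zfp219 and 305 and 282 with Dusp5, against 172 to 693 in the other aged libraries. The Zfp219 pair lay far below the pairs of the other guides. The log2 difference of Zfp219 from OTC was -0.99 ± 0.16 in Ttad (limma adjusted p = 3.96e-06), -0.95 ± 0.09 in the mean of the other aged states (adjusted p = 1.44e-14) and -0.30 ± 0.08 in young hosts (adjusted p = 0.00925). The interaction, which tests whether the guide effect in Ttad differs from that in the other aged states, was -0.04 (adjusted p = 0.977). The distal region was lower with Dusp5 than with OTC in the other aged states (-0.57 ± 0.19, limma adjusted p = 0.0422).

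Ctla4, the inhibitory receptor gene, had members 48054 and 14471 bases outside it. The nearer one (chr1:60930303-60930998) had 23.5 and 55.4 in OTC Ttad, 32.2 and 48.6 in Zfp219 Ttad and 35.2 and 75.2 in Dusp5 Ttad, with 33.6 to 90.9 in Tterm, 71.1 to 116 in Tprog and 74.2 to 127 in Ttran. Ttad overlapped Tterm and lay below Tprog and Ttran but for 1 library. In young hosts the region followed the same order, higher in Tprog than in Tterm by 0.997 ± 0.18 (limma adjusted p = 9.16e-07). Nr4a3, an orphan nuclear receptor gene induced by T cell receptor signals, had a member 96705 bases away (chr4:47947510-47948373) whose Ttad values of 23.9 to 51.3 overlapped the other aged libraries (30.3 to 75.3).

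The remaining list members were mostly weak. Foxp1, a keeper of T cell quiescence, had a member in its body (chr6:99335291-99335685, margin 0.65) with 6.71 and 8.62 in OTC Ttad, 39.9 and 15.4 in Zfp219 Ttad and 7.33 and 16.7 in Dusp5 Ttad, so that Zfp219 replicate 1 reached into the range of Tterm. Stat4, which carries interleukin 12 signals, had one in its body (chr1:52027592-52028075, margin 0.51) that read 0 and 29.6 in OTC Ttad and 46.9 and 43.5 in Dusp5 Ttad, and it met the margin in 1 guide alone. Tet2, an oxidase of methylated cytosine, had one 18145 bases outside (chr3:133563281-133564222) with 48.4 to 112 in Ttad and 59.7 to 162 in the other aged libraries. In young hosts Tprog exceeded Tterm there by 0.51 ± 0.15 (limma adjusted p = 0.0035). Zeb1, Zeb2, Bach1, Dnmt1, Itga1, Cdk6, Ccnd2, Max and Cycs each had 1 member. At Zeb2, a regulator of terminal effector cells (chr2:45017201-45017920, margin 0.26), Ttad read 11.7 and 50.5 with OTC and 62.7 and 89.5 with Zfp219.

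The members at the 3 printed windows differed in how they met the rule. At Adam19 (chr11:46126061-46127720, margin 0.50) every guide met the margin, with 139 and 96.1 in OTC Ttad, 95.8 and 98.0 in Zfp219 Ttad and 120.1 and 117 in Dusp5 Ttad, against 137 to 248 in the other aged libraries, so that only OTC Ttad replicate 1 overlapped them. It was called lower in Zfp219 (-0.80 ± 0.16, limma adjusted p = 0.00659) and in Dusp5 (-0.75 ± 0.16, adjusted p = 0.00529) when each was left out. At Il21 (chr3:37232612-37233289, margin 0.29) Ttad had 70.4 and 91.2 with OTC, 52.6 and 41.8 with Zfp219 and 65.9 and 70.2 with Dusp5, within the 54.6 to 149 of the other aged libraries but for the Zfp219 pair. In the mean of the other aged states Il21 was lower with Zfp219 than with OTC (-0.66 ± 0.17, limma adjusted p = 0.00287). At Gzmk (chr13:113180813-113181168, margin 0.31) Ttad had 13.4 and 14.8 with OTC, 45.8 and 40.1 with Zfp219 and 21.98 and 38.4 with Dusp5, and only 1 guide met the margin.

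How often an equal number of other regions past the floor would share a gene or a short stretch is not given here. The counts below therefore do not show whether members cluster more or less than other regions. The 830 members with a gene within 100 kb were assigned to 764 genes. Of these genes, 54 had 2 members and 6 had 3 (Maf, Snd1, Hivep3, Pbx3, Rbm47 and BC107364). Those 6 genes had 5, 15, 28, 7, 19 and 11 regions past the floor, in the same order. In Snd1, a nuclease gene of the RNA-induced silencing complex, the 3 members bounded a stretch of chr6 (28821681 to 28867857) with no other region past the floor. Their Ttad medians were 41.6, 69.4 and 41.2, against medians of 58.0, 91.5 and 53.8 in the other aged libraries. A stretch of chromosome 2 (26153420 to 26183342), near Lhx3 and Tmem250-ps, likewise held 3 members and no other region past the floor. Stretches of chromosome 18 (61613456 to 61698550) and chromosome 3 (96373581 to 96452554) each held 3 members among 7 regions past the floor. At the other 3718 regions of the members' genes the median difference of Ttad from the mean of the other aged states was -0.02, and Ttad was the lowest state at 16.6%, against 14.5% of all regions past the floor. By position, 61.5% of members lay in gene bodies, against 66.4% of regions past the floor and 57.2% of those with a mean of 30 to 100, and 1.26% lay on chromosome X, against 2.07%.

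Guide effects within Ttad were tested next. The rule pooled the guides, but the guides differed in depth and spread in Ttad (replicate SD at regions with a mean of 30 to 100 of 0.47 in OTC, 0.35 in Zfp219 and 0.47 in Dusp5), and OTC met the margin most often, so these tests are not free of the choice of members. Between Zfp219 and OTC Ttad, 106 members were called by limma at an adjusted p under 0.05, 78 higher and 28 lower with Zfp219. This is 12.2%, against a background of 8.23% of all regions. Between Dusp5 and OTC, 69 were called, 65 higher and 4 lower with Dusp5, which is 7.92% against a background of 2.88%. With quantile normalization the Dusp5 split was 41 higher and 9 lower. Both comparisons share the OTC libraries, whose mean over the members was the lowest (5.09 and 5.26, against 5.34 and 5.33 with Zfp219 and 5.42 and 5.43 with Dusp5). Among all regions with a mean of 30 to 100 the calls were 360 higher and 446 lower for Zfp219 and 226 higher and 56 lower for Dusp5, so higher calls outnumbered lower ones among members in both, and over that stratum only with Dusp5. Between Zfp219 and Dusp5 Ttad, 102 members were called, 33 higher and 69 lower with Zfp219, which is 11.7% against a background of 8.59%. With quantile normalization that split was 64 higher and 42 lower of 106. In the 446 regions highest in Ttad, chosen by the mirrored rule, calls ran the other way between Zfp219 and OTC, with 1 higher and 27 lower. Between Dusp5 and OTC the same 446 regions had 0 higher and 1 lower. Between Zfp219 and Dusp5 they had 1 higher and 16 lower, the same direction as the members.

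Among the called regions with no overlap of libraries, those higher in both knockouts than in OTC included a region 17498 bases outside Abcg1, a cholesterol exporter gene (chr17:31039514-31040196). It read 6.71 and 7.39 in OTC Ttad, 29.7 and 52.0 in Zfp219 Ttad and 32.2 and 40.1 in Dusp5 Ttad. The differences from OTC were 2.33 ± 0.41 for Zfp219 (limma adjusted p = 2.85e-05) and 2.2 ± 0.41 for Dusp5 (adjusted p = 0.00046). In the other aged states Zfp219 was also higher, by 1.37 ± 0.23 (adjusted p = 3.61e-06), with 37.9 to 89.6 against 6.02 to 39.9 in OTC. A region 36019 bases outside Syt7, a synaptotagmin gene of lysosome exocytosis (chr19:10351976-10352783), read 16.8 and 0 in OTC, 26.3 and 27.3 in Zfp219 and 32.2 and 55.2 in Dusp5 Ttad. The same direction held in the body of Frmd5 (0 and 22.2 in OTC, 34.8 and 29.0 in Zfp219, 33.7 and 41.8 in Dusp5). Cdk19, a Mediator kinase gene (log2 difference 2.88), and Cdc14a, a phosphatase gene (2.61), were the other regions most raised with Zfp219, and Stat4 (3.06) and Col23a1 (2.54) with Dusp5. At Syt7, Frmd5, Cdk19, Stat4 and Col23a1 the size of the difference rests on an OTC library at 0. At Gzmk, Zfp219 was higher than OTC by 1.54 ± 0.41 in Ttad (limma adjusted p = 0.00788) and by 1.15 ± 0.23 in the other aged states (adjusted p = 0.000104), and at Zeb2 by 1.57 ± 0.37 (adjusted p = 0.00283) and 0.99 ± 0.22 (adjusted p = 0.000297).

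Lower calls in the knockouts were fewer. A region in Zfp469 (chr8:122181191-122182005) read 11.9 and 11.1 with Zfp219, 48.6 and 53.0 with OTC and 64.5 and 115 with Dusp5 in Ttad. Zfp219 was below both OTC (-2.05 ± 0.42, limma adjusted p = 0.000378) and Dusp5 (-2.81 ± 0.42, adjusted p = 1.71e-06). In Ank3, the ankyrin G gene (chr10:69542625-69543272), Zfp219 Ttad read 7.63 and 5.97, against 40.2 and 28.3 with OTC and 30.8 and 36.8 with Dusp5, and Zfp219 was lower than OTC in the other aged states too (-1.33 ± 0.26, limma adjusted p = 4.75e-05). In both regions the Zfp219 pair alone was low. With Dusp5 the 4 regions lower than OTC lay at Tmem156 (-2.83), Cdh1, the E-cadherin gene (-2.24, with 5.86 and 6.69 against 23.5 and 46.8), Blvra, the biliverdin reductase gene (-1.71), and near Zfp184 (-1.51). Car8, a carbonic anhydrase relative (chr4:8155445-8156845), separated the knockouts, with 13.6 and 12.8 in Zfp219 Ttad and 67.4 and 50.1 in Dusp5 Ttad (-2.06 ± 0.38, limma adjusted p = 9.86e-05). Between the same guides Ogdh, a gene of the citric acid cycle, ran the other way, with 31.4 and 31.5 in Zfp219 and 5.86 and 5.01 in Dusp5.

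**Figure D5:**
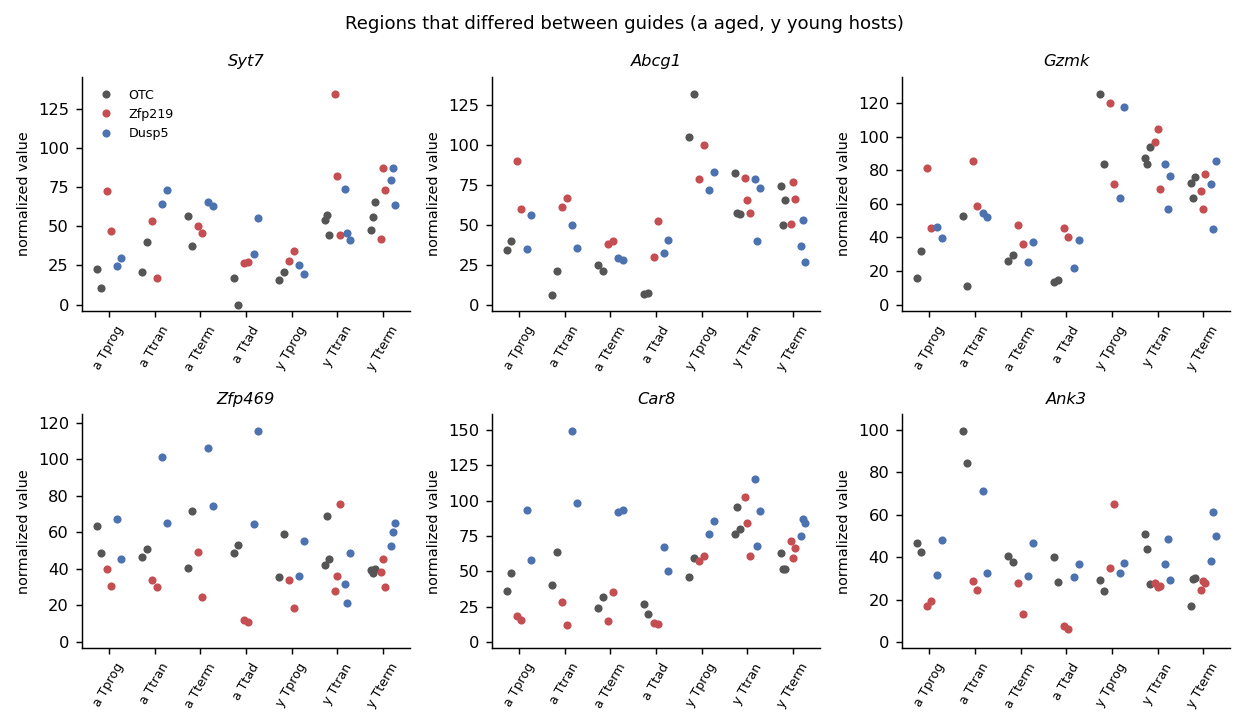
Normalized value in each library (points, coloured by guide) at 6 of the members named for differences between guides, by host age (a aged, y young) and sorted state. At Abcg1 and Gzmk the OTC Ttad libraries (6.71 to 14.8) lie below those of both knockouts, and at Zfp469 and Ank3 the Zfp219 pair is the low one.

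In the mean of aged Tprog, Ttran and Tterm, 146 members differed between Zfp219 and OTC (51 higher, 95 lower), 16.8% against a background of 18.4%, and 55 between Dusp5 and OTC (44 higher, 11 lower), 6.31% against a background of 8.37%. At a mean of 30 to 100 the shares were 13.8% of members against 12.7% of regions for Zfp219 and 5.14% against 4.86% for Dusp5, so the members lay near equally weak regions. The largest was a region in Trp73, a p53 family gene (chr4:154110349-154111325), with 35.0 to 66.1 in Zfp219 and 132 to 314 in OTC (-1.84 ± 0.24, limma adjusted p = 1.29e-09), and 44.9 to 124 in Dusp5 (-1.05 ± 0.24, adjusted p = 0.00102). With Dusp5 the region in Car8 was the most raised, with 57.8 to 149 against 23.97 to 63.8 (1.24 ± 0.22, limma adjusted p = 1.96e-05).

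Whether the guide effect in Ttad differed from that in the other aged states was tested by the interaction. For Zfp219 limma called 0 members, against a background of 0.052% of regions, with 128 members at an unadjusted p under 0.05, and edgeR and DESeq2 on recovered reads also called 0. For Dusp5 limma called 6, 3 in each direction (2 higher and 4 lower with quantile normalization), against a background of 0.169%, while edgeR called 0 and DESeq2 called 3. The largest was a region in Tmem156 (chr5:65082341-65082703), which in Ttad read 0 and 3.34 with Dusp5 and 25.2 and 7.39 with OTC, and in the other states 8.76 to 47.3 and 4.51 to 33.8.

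Young hosts had no part in the margin, and their values entered only the floor. The aged Ttad mean, however, is the value the rule chose to be low, so a high share of other groups above it follows in part from the choice and supports nothing. At 692 of the 871 regions (79.5%) all 3 young state means lay above the aged Ttad mean, against 29.7% of all regions with a mean of 30 to 100. The young means were above the aged ones of the same state by a median of 0.20 in Tprog, 0.11 in Ttran and 0.11 in Tterm, on the log2 scale. Over all regions with a mean of 30 to 100 these medians were 0.02, -0.02 and 0.002. Aged libraries of these states set the margin and young ones entered the floor. Young libraries were also deeper (median 16950433.5 reads, against 12619905.5), and the difference between ages was not tested. At Rngtt, for example, young Ttran had 305 to 403 and young Tterm 270 to 374, against 169 to 270.3 in aged libraries outside Ttad. At Hsbp1l1 and Synrg the young ranges also began above the aged Ttad values.

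Between young states, 318 members differed between Tprog and Tterm (186 higher and 132 lower in Tprog), which is 36.5% against a background of 49.3%. With quantile normalization that split turned to 159 higher and 172 lower. Between Ttran and Tterm 121 differed (104 higher and 17 lower in Ttran), 13.9% against a background of 20.5%. Between Tprog and Ttran 268 differed (108 higher and 160 lower in Tprog), 30.8% against a background of 38.4%. The difference between these shares was not tested, and the members are weaker than the table. At a mean of 30 to 100 the shares were 33.8% of members against 44.5% of regions between Tprog and Tterm, 11.1% against 12% between Ttran and Tterm and 27.1% against 37.5% between Tprog and Ttran. In that range the split between Ttran and Tterm was 65 higher and 13 lower among members, against 1277 and 647 over that stratum. The order was mostly kept in aged hosts, where 148 of the 186 and 114 of the 132 differed in the same direction between Tprog and Tterm. Between Ttran and Tterm it was 92 of the 104 and 14 of the 17, and between Tprog and Ttran 80 of the 108 and 148 of the 160. The same share over all regions is not given here, so this agreement is not shown to be particular to the members.

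The largest young difference was in the body of Prim2, which encodes the large subunit of DNA primase (chr1:33578248-33579301), with 99.6 to 130 in Tprog and 3.15 to 25.6 in Tterm (3.28 ± 0.30, limma adjusted p = 8.22e-17). A region in Il6ra, the interleukin 6 receptor gene (chr3:89906062-89906659), had 48.7 to 114 in Tprog against 6.07 to 20.4 in Tterm (2.28 ± 0.30, adjusted p = 2.66e-10). The region near Lmntd1 had 209 to 304 against 49.9 to 83.0 (1.94 ± 0.15, adjusted p = 2.67e-21). Other members were most open outside Tprog. A region 82853 bases from Hes1, a target of Notch signalling (chr16:29981075-29982504), had 25.5 to 66.4 in young Tprog, 89.2 to 162 in Ttran and 114 to 146 in Tterm. Tprog was lower than Tterm (-1.53 ± 0.18, limma adjusted p = 3.33e-12). In aged hosts the 6 Ttad libraries at this region (8.38 to 61.8) overlapped aged Tprog (25.7 to 60.9) and lay below Ttran and Tterm. The region in Batf3 was a member most open in Ttran, with 245 to 412 in young Ttran against 145 to 200 in young Tterm (1.04 ± 0.07, limma adjusted p = 4.17e-21) and 298 to 693 in aged Ttran.

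Guide effects in young hosts were called at few members, as at other weak regions. Zfp219 and OTC differed at 28 (20 higher, 8 lower), 3.21% against a background of 7.07%, and Dusp5 and OTC at 29 (8 higher, 21 lower), 3.33% against a background of 3.82%. With quantile normalization the splits were 15 higher and 10 lower for Zfp219 and 4 higher and 23 lower for Dusp5. At a mean of 30 to 100 the shares were 2.71% of members against 3.62% of regions for Zfp219 and 2.43% against 2.45% for Dusp5. The most raised with Zfp219 was a region in Aldh3b2, an aldehyde dehydrogenase gene (chr19:3975869-3976289), with 55.1 to 136 against 29.6 to 66.6 over the 3 states (1.01 ± 0.25, limma adjusted p = 0.00406). The ranges met only at their ends. The most lowered with Dusp5 was a region in Dnajb13, a co-chaperone gene (chr7:100511434-100512099), with 39.7 to 93.7 against 95.8 to 197 (-1.03 ± 0.14, limma adjusted p = 1.45e-07). No young library of Dusp5 reached the lowest OTC library there.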

How the data were processed

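ATAC-seq was measured in 48 libraries in 21 groups named by the sample titles, in which A and Y were read as aged and young hosts. The deposited table holds a normalized signal for 53868 regions in each library, made by the authors. The submitters' processing notes name Bowtie2 2.2.9, Picard 2.8.0, MACS2 2.1.1, SAMtools 1.3.1, DESeq2 1.28.1 and mm10, with no role given. Coordinates are those of the table, taken as mm10, and 0 of its value columns belonged to no sample. In each library the values were whole multiples of the worth of 1 read (100.0% within 1e-06), so whole reads were recovered and used for edgeR and DESeq2 as alternatives.

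The rule was applied to log2(value + 1), which understates differences at weak regions. Differences were tested with limma 3.58.1 (R 4.3.3) on log2(value + 1), one mean per group over all 48 libraries, with a mean-dependent prior on the spread and Benjamini-Hochberg adjustment over all 53868 regions, calls being made at an adjusted p under 0.05. The procedure was tested on simulated data. P-values measure the spread between pooled libraries, which may be technical. Replicate libraries differed by more than counting error, with a chi-square per degree of freedom of 2.79 to 4.53 over 33 pairs. Alternatives were edgeR 4.0.16, DESeq2 1.42.0, TMM or quantile scaling, a pseudocount of 8, another floor or margin, and leaving out replicates.

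Genes were assigned from RefSeq positions (GRCm38.p6), in the gene body or within 100 kb. The members and gene lists were chosen with earlier results of these data known, and the range of 30 to 100 was taken after seeing the members' levels. Regions were named if they had the 12 largest margins or 10 highest means, belonged to a gene list, lay nearest the margin, shared a gene or 100 kb stretch with at least 2 other members, or were among the 5 largest called differences in each direction of a comparison without overlap of libraries. Exceptions are stated.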

Additional observations from a re-analysis of the deposited data

Results flagged for a closer look

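At 6 members the effect of Dusp5 against OTC in aged Ttad differed from that in the other aged states by the interaction test in limma with Benjamini-Hochberg adjustment (0.689% of members, against a background of 0.169%). The differences were -3.58 at Tmem156 (adjusted p = 0.000581), 1.97 at Zdhhc20 (0.0179), 1.39 at Zan (0.0451), -1.86 near Sema4f (0.0399), -1.71 at Arap3 (0.0179) and 2.03 at a region of chromosome 6 with no gene within 100 kb (127302509 to 127303242, 0.0169). At Arap3 the Dusp5 libraries read 17.6 and 35.1 in Ttad and 53.4 to 101 in the other states, and the OTC libraries 57.0 and 32.0 in Ttad and 30.2 to 48.1. At Zdhhc20 they read 52.7 and 45.1 in Ttad and 28.9 to 75.3 elsewhere with Dusp5, and 8.38 and 19.7 in Ttad and 36.7 to 73.6 elsewhere with OTC. The low group was therefore Dusp5 Ttad at Tmem156, Sema4f and Arap3 and OTC Ttad at Zdhhc20, Zan and the region on chromosome 6. The same libraries entered the margin that chose these regions. On recovered reads edgeR called 0 of them and DESeq2 called 3 members.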

How the results depend on the processing

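The number of members rested on the settings of the rule: 375 with a floor of 60, 430 with a margin of 0.35, 66 with the margin met in each guide alone, 1344 and 1511 without replicate 1 or 2 of every aged group, and 864 to 1511 over all leave-outs. Quantile or TMM scaling moved none of the total counts of calls by more than 1.5 times, but quantile scaling turned the split between Zfp219 and Dusp5 in Ttad from 33 higher and 69 lower to 64 and 42, and that between young Tprog and Tterm from 186 and 132 to 159 and 172. Counts of calls in the guide left out fell to 43 in OTC and 22 in Dusp5 with edgeR and to 10 in Zfp219 when aged libraries were fitted alone. With edgeR and DESeq2 the members called were 30 and 38 for Dusp5 against OTC in Ttad, 49 and 62 for Zfp219 in young hosts, 53 and 59 for Dusp5 in young hosts, and 0 and 3 for the Dusp5 interaction, which fell to 2 with a pseudocount of 8 and 1 with aged libraries alone. Young libraries alone gave 46 for Zfp219, and testing only regions past the floor gave 1 for the Zfp219 interaction. The cause was not tested.

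Leaving out each replicate number in turn gave 30 to 75 calls for OTC, 4 to 19 for Zfp219 and 15 to 34 for Dusp5 in the guide left out. In Ttad it gave 42 to 92 for Zfp219 against OTC, 32 to 58 for Dusp5 against OTC and 34 to 92 between the knockouts. In the other aged states it gave 65 to 135 for Zfp219 and 13 to 47 for Dusp5, and for the interactions 0 to 6 and 4 to 13. In young hosts it gave 9 to 23 for Zfp219, 4 to 16 for Dusp5, 220 to 274 between Tprog and Tterm, 64 to 78 between Ttran and Tterm and 174 to 235 between Tprog and Ttran. With 1 library left in an aged group, that library was taken to vary like the others.

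No shared deviation by replicate number was seen. Deviations of same-numbered libraries correlated at -0.027 to 0.018 over 66 aged pairs and -0.013 to 0.016 over 36 young pairs. The sample titles do not say whether same-numbered libraries shared mice. With the replicate number as a block, no count moved by more than 1.5 times. Over all pairs of a named call and a setting, 915 kept the call and direction, 103 lost the call and 0 reversed. Most of the losses came when replicate 1 or 2 was left out, which leaves 1 aged library a group. TMM scaling, the replicate block and testing only regions past the floor lost none. The depth of 7786663 to 15723953 reads in Ttad limits what can be seen at members with means near 30.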
